A study of Arabidopsis thaliana with 8 samples.

Results

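The difference between Alc::LHY and wild-type Arabidopsis seedlings was compared between 4 h and 2 h after ethanol was given, to find genes whose response to the induced line reversed, faded or started in that interval. The comparison was between 4 of the 8 arrays of the series, 2 at 4 h and 2 at 2 h. Its test took the spread from a fit to all 8 arrays. For each gene the comparison took the log2 ratio of Alc::LHY over wild type at 4 h minus the same ratio at 2 h. That difference is called the shift here, and a negative shift means that the gene was lower in Alc::LHY, relative to wild type, at 4 h than at 2 h. Of 21471 genes measured, 22 had a shift that passed the test, of which 20 were lower and 2 were higher at 4 h. None passed when only the 4 arrays were fitted.

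Every array carried RNA of both lines, so each had Alc::LHY seedlings at 4 h or 2 h beside wild-type (Col-0) seedlings treated with ethanol and collected at the same time. Alc::LHY is in the Col-0 background and holds a copy of LHY behind an alcohol-inducible promoter. Both lines were grown on agar for 2 weeks under photoperiods of 12 h and moved to continuous light. Ethanol was put on the roots 17 h after that move and kept up as vapour. Total RNA came from seedlings, so shoots and roots were measured together. The labels do not say whether the line is 1 transformed clone or several, and the design has no line with the ethanol switch but without the extra LHY. The experiment was done in duplicate for both lines, named S and I in the labels. Alc::LHY carried the red dye (Cy5) in replicate S and the green dye (Cy3) in replicate I, so dye and replicate cannot be told apart. The labels do not say that S and I were separate sets of plants, and the p-values then describe how far apart these samples lie, a spread that may be only technical.

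LHY is a MYB-like transcription factor of the plant circadian clock. With its close relative CCA1 it peaks around dawn and represses clock and output genes that are expressed later in the day, and plants with constant high LHY lose their rhythms. In the alcohol switch, the fungal activator AlcR binds its promoter only when ethanol or a product of it is present, so the gene behind that promoter can be turned on at a chosen time. Wild-type plants given the same ethanol control for the response to ethanol, but both lines continue their own daily rhythm between the time points.

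Between 50.8% and 63.2% of spots per array and dye were well above background, and 16400 of the genes tested were so in both lines on all 4 arrays. The standard deviation of the log2 ratios over all genes was 0.67 and 0.60 at 4 h (replicates S and I), against 0.51 and 0.52 at 2 h. Before ethanol (0 h) it was 0.21 in S and 0.32 in I. At 4 h 7887 genes differed between the lines (36.7%), against 3043 at 2 h (14.2%), by limma with Benjamini-Hochberg adjusted p under 0.05. In Alc::LHY 3719 of them were higher (17.3%) and 4168 lower (19.4%) at 4 h, against 1365 higher (6.36%) and 1678 lower (7.82%) at 2 h. The counts rest on the array-wise loess and on both replicates. With median centring in its place 1443 genes differed at 4 h (342 higher and 1101 lower) and 0 at 2 h. Without the array of S or I at 4 h 3277 or 3901 differed at 4 h, and without that of S or I at 2 h 504 or 603 differed at 2 h. Across genes, the shift in S and the shift in I correlated with r = 0.401 over 21459 genes, which are not independent replicates.

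The gene that the line carries in extra copy gave small ratios. LHY was at 0.51 and 0.26 at 4 h, against 0.97 and 0.17 at 2 h (log2 Alc::LHY over wild type, replicates S and I). The highest value was that of S at 2 h and the lowest that of I at 2 h, so the times overlapped. Its shift of -0.19 ± 0.18 (SE) did not pass the test (limma adjusted p = 0.645). It was 0.08 without the 2 h array of S, and -1.33 with the scanner software's own ratios (limma adjusted p = 0.178). The mean ratio of LHY was 0.38 at 4 h (limma adjusted p = 0.0534). At 2 h wild type was not well above background, and LHY was at least 1.49-fold higher in Alc::LHY (limma adjusted p = 0.0301). CCA1, the close relative of LHY, was at -0.44 and -1.45 at 4 h, against -0.30 and -0.47 at 2 h. Its arrays overlapped, and its shift of -0.56 ± 0.31 did not pass (limma adjusted p = 0.413). Levels of CCA1 were 1.48 log2 units higher at 4 h than at 2 h in Alc::LHY and 2.04 higher in wild type, and neither change passed (limma adjusted p = 0.0599 for Alc::LHY and 0.0611 for wild type).

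Few genes passed the test of the shift, and nearly all of those moved down. The 22 called shifts were 0.102% of the genes tested. The 20 lower ones were 0.0931% and the 2 higher ones 0.00931%. At an unadjusted p under 0.05 there were 3642 genes (17%), of which 2192 were lower (10.2%) and 1450 higher (6.75%). The median shift over all genes was -6.37e-05. The calls lay close to the threshold, with limma adjusted p between 0.0439 and 0.0486. No gene was called when any 1 of the 4 arrays was left out, nor when only these 4 arrays were fitted, nor without background subtraction, while 76 were called when dim genes were kept. The separate-channel fit of limma, which models the level of each line on each array, called 150 (0.7%), of which 117 were lower (0.546%). All 22 kept their sign under all alternatives tried. That was largely set beforehand, since all 22 had the same sign of shift in both replicates and several alternatives leave the estimate unchanged.

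Of the 22 genes, 13 differed between the lines at both times with opposite signs, and in each the gene was lower in Alc::LHY at 4 h and higher at 2 h. A further 7 differed at 4 h only, and 2 differed at both times with the same sign and a larger ratio at 4 h. No called shift belonged to a gene that differed at 2 h only.

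Among the reversed genes with a symbol were a suberin transporter, a cell wall protein and a terpene synthase. ABCG20, a membrane transporter needed for the suberin barrier of roots, was at -1.88 and -0.93 at 4 h (S and I), against 0.15 and 1.57 at 2 h. Both 4 h ratios lay below both 2 h ratios, and its shift was -2.26 ± 0.17 (SE of the fit over 2 replicates, limma adjusted p = 0.0439). With 2 arrays per time such a gap is common: the times did not overlap, in either direction, in 9250 of 21412 genes. PELPK1, a proline-rich protein of the cell wall, was at -1.19 and -0.38 at 4 h, against 0.62 and 1.66 at 2 h. It was lower in Alc::LHY on both 4 h arrays and higher on both 2 h arrays, with a shift of -1.92 ± 0.14 (limma adjusted p = 0.0439), and its 2 other probes gave -1.08 and -1.49. TPS-CIN, which makes the volatile terpene cineole and is expressed in roots, was at -1.14 and -0.56 at 4 h, against 0.75 and 1.33 at 2 h. Its arrays did not overlap either, and its shift was -1.89 ± 0.16 (limma adjusted p = 0.0439). An identical neighbouring copy of TPS-CIN shares its probes, so the values cannot be assigned to 1 of them.

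ICS2, an isochorismate synthase of the pathway to salicylate and phylloquinone, was at -1.26 and -0.94 at 4 h, against 0.27 and 0.86 at 2 h. HIPP25, a heavy-metal-associated isoprenylated plant protein, was at -1.68 and -1.37 at 4 h, against 0.07 and 1.0 at 2 h. In both genes the 2 replicates took the same sign at each time. The shift was -1.66 ± 0.17 for ICS2 (limma adjusted p = 0.0461) and -2.06 ± 0.18 for HIPP25 (limma adjusted p = 0.0439). MLP34, of the MLP-like (major latex protein) family, was at -0.65 and -1.15 at 4 h, against 1.21 and 0.71 at 2 h. Unlike most of the others, MLP34 had its higher 2 h ratio in replicate S. Its shift was -1.86 ± 0.18 (limma adjusted p = 0.0439), and its other probes gave -2.0 and -0.92.

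Among the 13, the largest shifts were in loci that carry no gene symbol in the reference table. AT5G47980 was at -1.12 and -1.50 at 4 h, against 0.88 and 1.44 at 2 h, a shift of -2.47 ± 0.24. AT3G45710 was at -2.06 and -1.49 at 4 h, against 0.46 and 0.89 at 2 h, a shift of -2.45 ± 0.21. Both genes were thus at least 1 log2 unit lower in Alc::LHY on every 4 h array. A second probe of AT3G45710 gave -2.56 and another, dim one -0.60. AT1G77530 was at -1.57 and -1.0 at 4 h, against 0.69 and 1.43 at 2 h, a shift of -2.34 ± 0.22. The remaining 3 loci, AT5G26280, AT1G74770 and AT5G07475, shifted by -1.78 ± 0.19, -1.72 ± 0.18 and -1.35 ± 0.14, with both 4 h ratios negative and both 2 h ratios positive. A second probe of AT5G26280, which was dim, gave -0.36, and a second probe of AT1G74770 gave -0.86. The unnamed transcript TA32551_3702 completed the 13, with a shift of -1.41 ± 0.13.

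**Figure D1:**
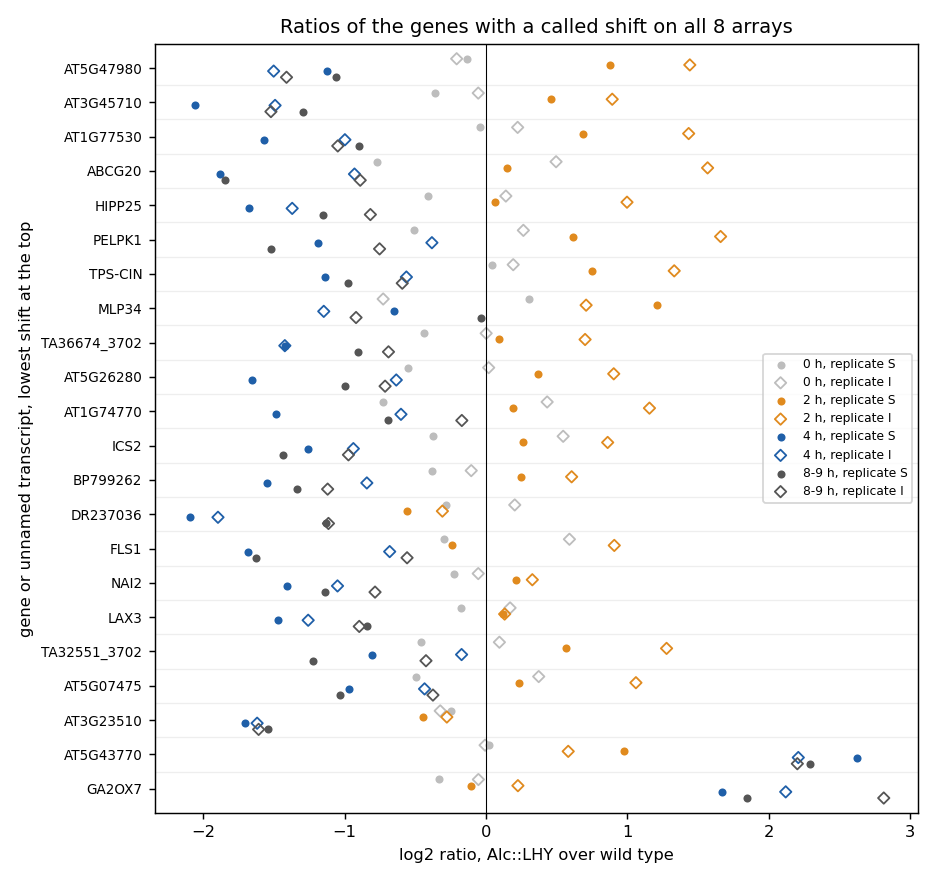
Log2 ratio of Alc::LHY over wild type on each of the 8 arrays, for the 22 genes with a called shift. The points are the 2 arrays at 0 h, at 2 h, at 4 h and at the last time of each replicate. In the 13 reversed genes both 4 h points lie left of 0 and both 2 h points right of it, while AT5G43770 and GA2OX7 have their 4 h points to the right of their 2 h points.

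Among the genes that differed at 4 h and not at 2 h, 6 were lower in Alc::LHY at 4 h and 1 was higher. FLS1, the main flavonol synthase, was at -1.68 and -0.68 at 4 h, against -0.24 and 0.91 at 2 h. Within each replicate the 4 h ratio was the lower one, and the 4 h ratio of I also lay below the 2 h ratio of S. Its shift was -1.52 ± 0.13 (limma adjusted p = 0.0439). At 0 h it already stood at -0.30 in S and 0.59 in I. LAX3, an auxin influx carrier that acts in lateral root emergence, was at -1.47 and -1.26 at 4 h, against 0.12 and 0.13 at 2 h. The replicates of LAX3 lay closer together than those of most called genes, and its shift was -1.49 ± 0.15 (limma adjusted p = 0.046). NAI2, a protein needed to form the ER bodies of Brassicaceae, was at -1.41 and -1.05 at 4 h, against 0.22 and 0.33 at 2 h. Its shift was -1.50 ± 0.14 (limma adjusted p = 0.0439), while a second, dim probe gave -0.41.

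AT3G23510 was at -1.70 and -1.62 at 4 h, against -0.44 and -0.28 at 2 h, a shift of -1.30 ± 0.14 (limma adjusted p = 0.0461). Its 2 h ratios were already below 0 on both arrays and missed the threshold there (limma adjusted p = 0.0534). The unnamed transcripts TA36674_3702 and BP799262 shifted by -1.82 ± 0.18 and -1.62 ± 0.16. GA2OX7, which inactivates gibberellin precursors, was the gene that started upwards. It was at 1.67 and 2.12 at 4 h, against -0.11 and 0.23 at 2 h. Wild type was not well above background at either time, so GA2OX7 was at least 3.72-fold higher in Alc::LHY at 4 h, while at 2 h the lines did not differ by the test (limma adjusted p = 0.828). The fit gave a shift of 1.84 ± 0.19 (limma adjusted p = 0.0466), which, with wild type near background, is not an exact size.

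The other 2 genes had grown further from wild type by 4 h. AT5G43770 was at 2.63 and 2.21 at 4 h, against 0.98 and 0.58 at 2 h. Wild type was again not well above background, and the gene was at least 5.33-fold higher in Alc::LHY at 4 h and at least 1.72-fold higher at 2 h. The fitted shift of 1.64 ± 0.16 (limma adjusted p = 0.0439) is likewise not an exact size. The unnamed transcript DR237036 was at -2.1 and -1.90 at 4 h, against -0.56 and -0.31 at 2 h, a shift of -1.56 ± 0.15. Both higher called shifts belong to genes that were measured above background in Alc::LHY only.

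The direction at 4 h was also that of the last time. At 0 h none of the 22 genes differed between the lines by limma, where 3 of all genes did (0.014%) and 501 had an unadjusted p under 0.05 (2.33%). The 0 h ratios of the 20 lower genes ran between -0.77 and 0.59. At the last time, which was 9 h for S and 8 h for I, all 20 were lower in Alc::LHY on both arrays and all 20 differed, where 20% of all genes did in that direction. Their median ratio was -0.14 at 0 h, 0.64 at 2 h, -1.21 at 4 h and -0.98 at 8-9 h. Values at the last time ranged widely, since MLP34 was at -0.04 and -0.92 in S and I, whereas FLS1 was at -1.63 and -0.56. GA2OX7 and AT5G43770 were again called higher (16.8% of all genes were), at 1.85 and 2.82 for GA2OX7 and at 2.29 and 2.2 for AT5G43770. Between 4 h and 8-9 h limma called no shift in any gene (0%), with 1745 at an unadjusted p under 0.05 (8.13%).

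**Figure D2:**
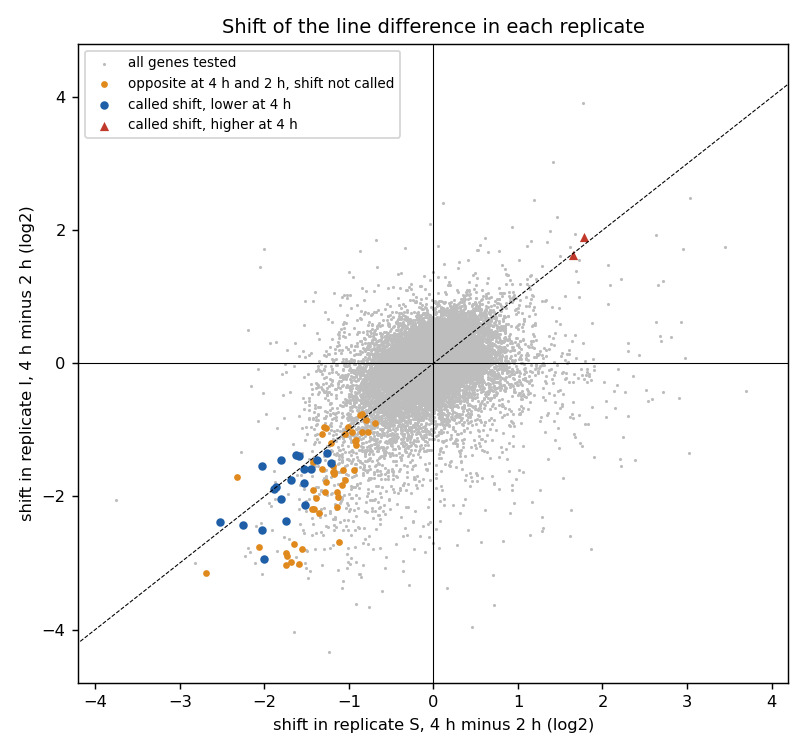
Shift of the log2 ratio, 4 h minus 2 h, in replicate I (vertical axis) against replicate S (horizontal axis), with 1 grey point per gene. Called genes are blue (lower) or red (higher). Orange points are genes called with opposite signs at 4 h and 2 h whose shift was not called. The 20 called lower genes lie in the lower left and the 2 called higher genes in the upper right; r over all genes is 0.401.

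The change between times was also taken within each line. It is made of the same values that the genes were called on, so its direction is partly set by their choice. In the 20 lower genes the level was lower at 4 h than at 2 h in Alc::LHY for 20 of 20, with a median change of -0.71 log2 units, and higher in wild type for 20 of 20, with a median of 1.03. The wild-type change was the larger one in 14 of them. Only LAX3 and AT3G23510 fell within Alc::LHY by the test, by 0.87 ± 0.13 (limma separate-channel adjusted p = 0.0469) and by 0.95 ± 0.13 (limma adjusted p = 0.0405). PELPK1 had a small change in Alc::LHY, -0.39 ± 0.30, beside 1.53 ± 0.30 in wild type. AT5G47980 differed on both sides, at -1.51 ± 0.31 in Alc::LHY and 0.96 ± 0.31 in wild type. GA2OX7 rose in Alc::LHY by 1.58 ± 0.17 (limma adjusted p = 0.0162), with wild type at -0.26 ± 0.17. Over all genes, the separate-channel fit of limma called 36 changes between 4 h and 2 h in Alc::LHY (0.168%), 13 higher (0.0607%) and 23 lower (0.107%), and 0 in wild type (0%), with 3347 (15.6%) and 2675 (12.5%) at an unadjusted p under 0.05. The count in Alc::LHY was 1, 18, 2 and 70 without the arrays of S at 4 h, I at 4 h, S at 2 h and I at 2 h, and the count in wild type was 168, 0, 48 and 168. A line's change between times is read across arrays, without the same-array partner that a ratio has.

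**Figure D3:**
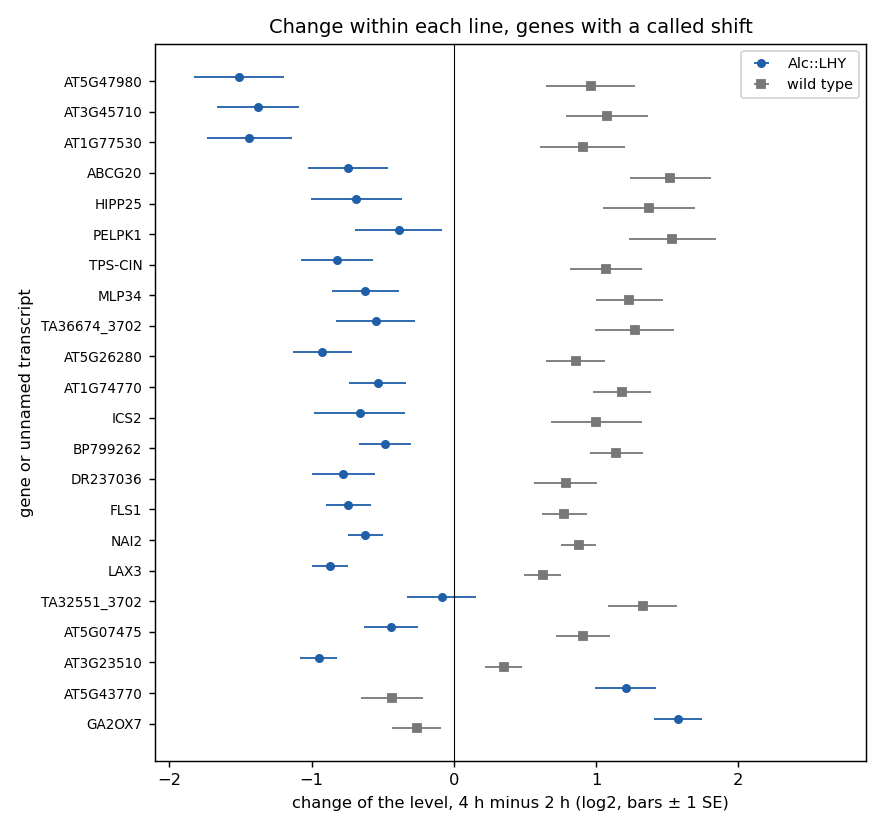
Change of the log2 level between 4 h and 2 h within Alc::LHY (circles) and within wild type (squares), with bars of 1 SE, for the 22 genes with a called shift. For the 20 lower genes the Alc::LHY points lie left of 0 and the wild-type points right of it, with wild type farther from 0 in 14 of them.

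Counting genes by the calls at each time gave a wider set of reversals. Of 1365 genes higher in Alc::LHY at 2 h, 60 were lower at 4 h (0.279% of all genes), 1035 were still higher and 270 no longer differed. Of 1678 genes lower at 2 h, 0 were higher at 4 h, 1533 were still lower and 145 no longer differed. A further 2684 genes were higher and 2575 lower at 4 h only. The 60 genes had a median ratio of -0.78 at 4 h, against 0.70 at 2 h, and shifts between -2.92 and -0.79, of which 13 passed the test of the shift itself. The largest adjusted p among the others was 0.0858. Without the arrays of S at 4 h, I at 4 h, S at 2 h and I at 2 h the count of 60 was 37, 29, 21 and 1. With the scanner software's ratios it was 45, of which 10 were higher at 4 h and lower at 2 h, and 16 were among the 60. At 8-9 h 38 of the 60 were called lower again and 1 was called higher, where 20% and 16.8% of all genes were. At 0 h none of the 60 differed.

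Several of the 60 genes lie side by side in the genome: 10 of the 55 with a locus formed 6 neighbouring pairs. The genes named in this and the next paragraph were chosen after their values were seen. THAS1, CYP708A2, CYP705A5 and AT5G47980 form a run on 1 chromosome. The first 3 make, hydroxylate and desaturate thalianol, a triterpene of roots whose genes form an operon-like cluster. THAS1, the thalianol synthase, was at -1.16 and -1.05 at 4 h, against 0.58 and 1.97 at 2 h. CYP708A2, the hydroxylase, was at -0.93 and -0.41 at 4 h, against 0.38 and 1.17 at 2 h. CYP705A5, the desaturase, was at -0.99 and -0.86 at 4 h, against 0.61 and 2.15 at 2 h. All 3 were below 0 on both 4 h arrays and above 0 on both 2 h arrays, with shifts of -2.39 for THAS1, -1.45 for CYP708A2 and -2.30 for CYP705A5 that did not pass (limma adjusted p = 0.0648, 0.0506 and 0.067). Other probes of CYP705A5 gave -1.40 and -0.90. PELPK2, next to PELPK1 and like it a repeat protein of the wall, shifted by -1.71 (adjusted p = 0.0506).

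Other genes among the 60 act in ER bodies, in glucosinolate breakdown and in root transport. PYK10, the main beta-glucosidase of root ER bodies, was at -0.51 and -0.90 at 4 h, against 0.93 and 1.28 at 2 h. Its shift was -1.81 (limma adjusted p = 0.0506), and 6 other probes gave -1.86 to -1.34. The neighbouring jacalin-related lectins JAL33 and JAL34 shifted by -1.45 and -1.42, and NSP1, which turns glucosinolate breakdown towards nitriles, by -1.40. Their other probes gave -1.11 to -0.60 for JAL33 and -1.46 and -1.02 for JAL34. Those of NSP1 gave -1.19, -1.14 and, in a dim one, 0.09. NIT3, a nitrilase, was at -0.80 and -1.09 at 4 h, against 0.47 and 0.69 at 2 h. The largest shift of the 60, -2.92, was that of IRT1. IRT1, the iron uptake transporter of the root epidermis, was at -2.36 and -1.03 at 4 h, against 0.33 and 2.12 at 2 h. ABCG37, an exporter of auxin precursors and of coumarins from roots, was at -1.70 and -1.05 at 4 h, against 0.36 and 1.71 at 2 h. At 8-9 h IRT1 was at -0.28 and -0.30 and ABCG37 at -0.42 and -0.19 in S and I, and neither passed the test of the line difference there (limma adjusted p = 0.448 and 0.358). GPAT5, which makes the glycerol esters of suberin, shifted by -1.37 (limma adjusted p = 0.0555).

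One wild-type sample moved with these genes. The wild-type level at 2 h in replicate I was the lowest of the 4 wild-type levels at 4 h and 2 h in 53 of the 60 genes (88.3%). It was so in 17 of the 20 called lower genes (85%) and in 5531 of 21403 genes overall (25.8%). The 60 and the 20 were chosen on ratios that favour a low wild-type level at 2 h. In all 60 and all 20 wild type was lower at 2 h than at 4 h in both replicates, against 5881 of 21403 genes. Their lowest sample was thus 1 of the 2 samples at 2 h, and the share over all genes is not a like baseline. The 2 h ratio was larger in I than in S in 55 of the 60, and the 0 h ratio in 56. Over all 21471 genes these counts were 8903 and 11078. The median shift of the 60 was -1.31 in replicate S alone and -1.77 in replicate I alone. Most markers of root tissue were also lowest in the wild-type sample at 2 h in I. Of 24 root marker genes measured, 20 had their lowest wild-type level in that sample (83.3%), and their summed level (log2) was 13.7 and 14.1 in Alc::LHY at 4 h against 14.3 and 14.7 in wild type, and 14.4 and 14.4 in Alc::LHY at 2 h against 14.1 and 13.2 in wild type. LRX1, NAC015 and CYP86B1, which mark root hairs, root cap and suberised cells, were not well above background in 1 of the lines at 1 or both times. The markers' part in these results was not tested. In RNA of whole seedlings, fewer root cells and less of these RNAs per root cell cannot be told apart.

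Of the 24 root markers, 4 were called with opposite signs at the 2 times and 11 at neither time, against 60 and 13169 of all 21471 genes. Of all 24, 16 had a lower shift at an unadjusted p under 0.05 and 0 a higher one, where 10.2% and 6.75% of all genes did, and none passed after adjustment. Their median shift was -1.28, with -0.56 in S and -1.51 in I, and their median ratio was -0.39 at 4 h, against 0.59 at 2 h. By tissue, the median shift was -1.45 in 5 triterpene and root cap genes, -1.28 in 11 endodermis and suberin genes and -0.44 in 8 epidermis and root hair genes. The endodermis and suberin median was -0.74 without the 4 h array of I and -0.82 without the 2 h array of I. With the scanner software's ratios the epidermis median was -1.32 and the triterpene median -2.54. CYP86A1, a fatty acid hydroxylase of suberin, was at -0.41 and -0.22 at 4 h, against 0.56 and 2.71 at 2 h. CASP1, which builds the Casparian strip, shifted by -1.79, and the suberin feruloyl transferase RWP1 by -1.57 (limma adjusted p = 0.129 and 0.0654). EXPA7, a root hair expansin, was at 1.28 and -0.49 at 4 h, against 1.84 and 2.41 at 2 h. Not all markers fell: 20 of the 24 had a negative shift in both replicates and 2 a positive one. Over all 21471 genes 6778 and 6571 did. FAR1 and SCR, of the endodermis and suberin list, had mean ratios of -0.36 and -1.03 at 4 h, against -0.61 and -0.76 at 2 h. Their shifts were 0.25 and -0.27. The cutin and wax genes of the shoot had a median shift of -0.29, with 4 of 12 lower at an unadjusted p under 0.05.

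Most genes of the light-harvesting list had lower ratios at 4 h than at 2 h. Of 22 genes for light-harvesting proteins and the Rubisco small subunit, 15 had a lower shift at an unadjusted p under 0.05, where 10.2% of all genes did. In 18 the shift was negative in both replicates, as in 6778 of the 21471 genes. None of the 22 passed after adjustment. Their median shift was -1.08, with -0.72 in S and -1.48 in I, and the median ratio was -1.56 at 4 h, against -0.22 at 2 h. LHB1B1, a chlorophyll-binding protein of the main antenna, was at -2.22 and -3.23 at 4 h, against -0.67 and -0.73 at 2 h, a shift of -2.02 ± 0.37 (limma adjusted p = 0.0819). LHCB2.1, of the same antenna, was at -1.55 and -1.74 at 4 h, against -0.67 and -0.26 at 2 h. Neither gene overlapped between the times, as was so for 9250 of 21412 genes. Not all members fell: the shift was 0.04 in LHCB4.1, 0.09 in RBCS1B, 0.002 in RBCS2B and -0.11 in RBCS3B. The last 3 code for the Rubisco small subunit. Antenna genes are near-identical copies of each other, so 1 probe can read several. Within the lines, the median change of their level was -0.13 in Alc::LHY, against 0.75 in wild type. The wild-type sample at 2 h in replicate I was the lowest of 4 in 2 of 21 of them (9.52%).

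Cold and drought response genes had the highest list median when all arrays were used, 0.75. It was 0.10 without the 4 h array of S and 0.47 without the 2 h array of I, and other lists were then higher. Of 16 genes, 5 had a higher shift and 1 a lower one at an unadjusted p under 0.05, where 6.75% and 10.2% of all genes did. In 12 of the 16 the shift was positive in both replicates, as in 6571 of the 21471 genes. The median shift of the list was 1.07 in S and 0.36 in I. Its median ratio was 0.41 at 4 h, against 0.00 at 2 h. KIN2, a small hydrophilic protein made in cold, was at 4.25 and 2.71 at 4 h, against 1.22 and 0.23 at 2 h, a shift of 2.76 ± 0.48 (limma adjusted p = 0.0752). Its near-identical neighbour KIN1 was at 4.53 and 2.36 at 4 h, against 1.57 and 0.65 at 2 h, and probes may read both. COR413IM1, of the chloroplast inner membrane, was at 3.45 and 2.0 at 4 h, against 0.00 and 0.25 at 2 h. In these genes both 4 h ratios exceeded both 2 h ratios, and S was the higher replicate at 4 h. RD22, a drought-responsive gene, had a shift of -0.75. Of 23 ABA signalling genes, 3 were higher and 4 lower at an unadjusted p under 0.05, with a median of 0.19. Among them HAI2, a phosphatase of the ABA pathway, had a shift of 1.13 and the ABA receptor PYL5 one of -0.78.

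Lists of specialised metabolism and growth lay below 0. Of 25 glucosinolate genes, 20 had a lower shift at an unadjusted p under 0.05 and 23 a negative shift in both replicates, with a median of -0.80. Of all genes 10.2% were lower and 6.75% higher at that p, and 6778 of 21471 were negative in both replicates. The median ratio of the 25 was -1.44 at 4 h, against -0.67 at 2 h, so it was below 0 at both times. CYP79B3, which starts indole glucosinolate synthesis from tryptophan, was at -2.13 and -2.56 at 4 h, against -1.14 and -0.60 at 2 h. Of 19 phenylpropanoid and flavonoid genes, 10 were lower and 0 higher at that p, with a median of -0.61. FLS1 was the only member of the 24 lists that passed after adjustment. PAL1, the entry enzyme of the pathway, had a shift of -1.24, and TT4, the chalcone synthase, one of -1.23 (limma adjusted p = 0.0858 and 0.0976). Of 19 expansin and xyloglucan-modifying genes, 8 were lower, with a median of -0.46. EXPA8, an expansin, was at -2.87 and -3.08 at 4 h, against -1.63 and -1.84 at 2 h.

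The nutrient and ethanol lists held single genes with wide swings. SULTR1;2, the main root sulfate transporter, was at -2.42 and -1.62 at 4 h, against 0.40 and 1.37 at 2 h, in a list of 9 genes with a median shift of -0.36. Its 0 h ratios were -0.77 and 1.33, so the replicates also differed before ethanol. A second, dim probe of SULTR1;2 shifted by -0.80, against -2.90 for the one used. Of 17 nitrate and sugar-starvation genes, 1 was higher and 3 lower at an unadjusted p under 0.05 (6.75% and 10.2% of all genes). Their median was -0.14 (-0.80 in S and 0.35 in I). The lowest of them, NRT1.1, the nitrate transporter and sensor, was at -1.46 and -0.85 at 4 h, against 0.14 and 1.33 at 2 h. Of 14 ethanol and fermentation genes, 1 was higher and 2 lower at an unadjusted p under 0.05, with a median of -0.13. That median was 0.03 without the 4 h array of I and negative under all other alternatives. PDC2, a pyruvate decarboxylase, was at 1.14 and 1.40 at 4 h, against 1.99 and 2.49 at 2 h, and ADH1, the alcohol dehydrogenase, at 2.31 and -0.23 at 4 h, against 0.72 and -0.37 at 2 h. The ADH1 arrays overlapped widely.

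Of 14 LHY-family and LNK genes, 3 had a lower shift and 0 a higher one at an unadjusted p under 0.05 (10.2% and 6.75% of all genes). Their median was -0.28. Of 14 daytime and evening clock genes 2 were lower and 0 higher, with a median of -0.06 that changed sign with the processing. TCP11, also named CHE and a repressor of CCA1, was at -2.24 and -1.53 at 4 h, against -0.96 and -1.01 at 2 h. Of 17 clock output genes 4 were lower, with a median of -0.46. COL2, of the CONSTANS-like family, had higher levels at 4 h than at 2 h in both lines, by 1.39 in the induced line and 2.45 in wild type (limma adjusted p = 0.0732 and 0.0611). The rapid wound and stress genes had a median of 1.03 in S and of -0.36 in I, and 0 of 13 passed an unadjusted p of 0.05 in either direction.

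**Figure D4:**
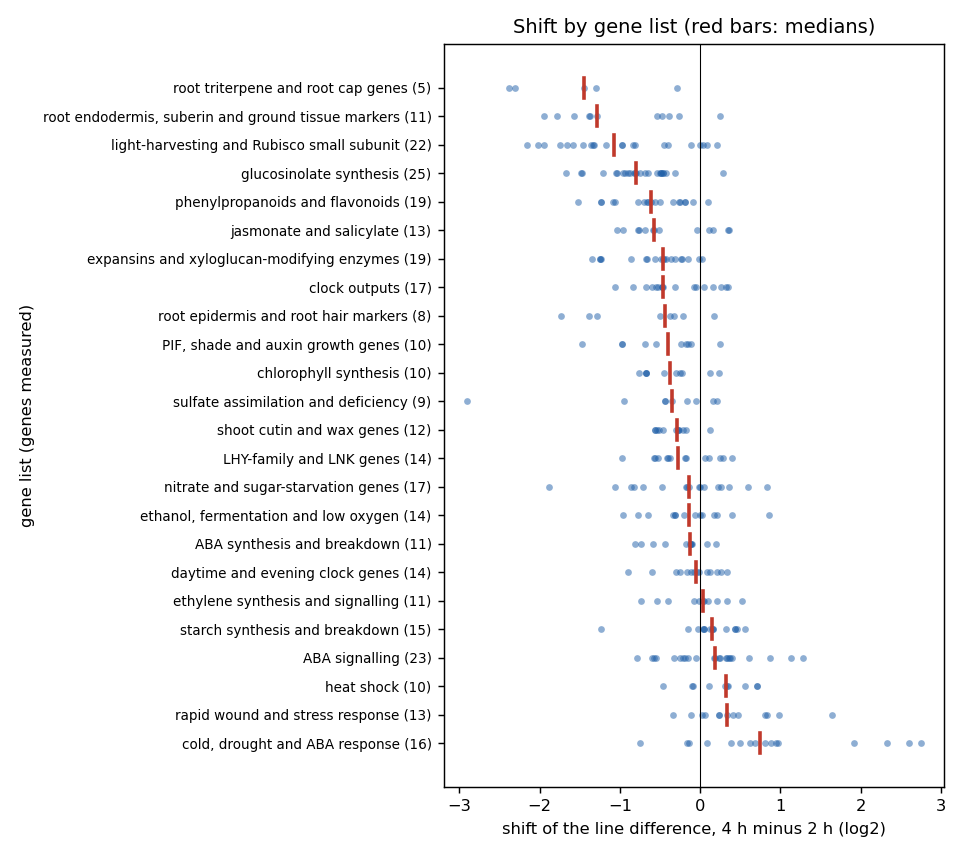
Shift of the log2 ratio, 4 h minus 2 h, for each gene (points) of 24 gene lists, with the median of each list as a red bar and the number of genes measured in brackets. Root triterpene, root endodermis, light-harvesting and glucosinolate genes have medians from -1.45 to -0.80, and the cold, drought and ABA response list has the highest median, 0.75.

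Just inside the threshold was AT5G26280, with an adjusted p of 0.0486 by limma. Among the genes next to it, with an adjusted p of 0.0506, were AT2G36090, PELPK2, PYK10 and CYP708A2, all lower in Alc::LHY at 4 h and higher at 2 h, and RAP2.9, a transcription factor of the AP2/DREB type. RAP2.9 was at 3.01 and 2.33 at 4 h, against 0.94 and 0.85 at 2 h. Its shift was 1.77 ± 0.20, and in contrast to GA2OX7 it was well above background in both lines.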

How the data were processed

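RNA of both lines was hybridised together on 8 Agilent 2-colour arrays of 45220 features. Per the file headers, the authors scanned them with Feature Extraction 10.7.3.1 and deposited median spot and background intensity for each dye, which are not normalized, and a log10 ratio of Cy5 over Cy3. The deposited value table holds the same log10 ratio (r at least 0.999999 per array), with Alc::LHY over wild type on every array and a median of 0. The headers hold medians and not means of the pixels, so medians were used.

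Ratios here are log2 values computed from the deposited intensity with limma 3.58.1 (R 4.3.3): normexp background correction with offset 50, loess within arrays with 1417 control features at weight 0, and 161 outlier spots left out. Spots of a probe were averaged. A probe was kept if well above background in either dye on at least 2 arrays with values on at least 6, which left 28465 of 43603 probes, and the brightest probe stood for a gene. The fit had a coefficient for each of 4 times and a dye term (3 residual df), and the shift is the contrast of 4 h and 2 h. All 8 arrays share 1 estimate of the spread, and only 2 arrays per time limit the precision. Within-line levels were modelled per channel (lmscFit) after Aquantile normalization (intraspot correlation 0.332). Both fits were tested on simulated data.

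Deviations of the replicates at 2 h and 4 h correlated with r = 0.213 over genes. Replicate, dye and slide are 1 split, and the dye term is also the replicate block.

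The members and the 24 gene lists were chosen with earlier results of these data known. Genes were named by rule: the 10 largest called shifts in each direction with the same sign in both replicates and above background on all 4 arrays, the 4 smallest p per class and direction, called list members, and LHY and CCA1. GA2OX7, AT5G43770, RAP2.9, the unnamed transcripts, the uncalled reversed genes and the list examples were named after their values were seen. Roles and neighbours follow the RefSeq gene table, and promoter motifs were not analysed here. Alternatives changed the background, normalization, ratio, filter, probes, variance model, block and samples.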

Additional observations from a re-analysis of the deposited data

Results flagged for a closer look

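In 22 genes the line difference at 4 h differed from that at 2 h by the test of the difference itself (limma, adjusted p under 0.05). Each value below is the log2 ratio of Alc::LHY over wild type at 4 h minus that at 2 h.

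Among genes that were lower in Alc::LHY at 4 h and higher at 2 h, the shift was -2.47 in AT5G47980, -2.45 in AT3G45710, -2.34 in AT1G77530, -2.26 in ABCG20 and -2.06 in HIPP25. It was -1.92 in PELPK1, -1.89 in TPS-CIN, -1.86 in MLP34, -1.78 in AT5G26280 and -1.72 in AT1G74770. In ICS2 it was -1.66, in TA32551_3702 -1.41 and in AT5G07475 -1.35. Among genes that differed at 4 h and not at 2 h it was -1.82 in TA36674_3702, -1.62 in BP799262, -1.52 in FLS1, -1.50 in NAI2, -1.49 in LAX3, -1.30 in AT3G23510 and 1.84 in GA2OX7. Where the difference grew it was 1.64 in AT5G43770 and -1.56 in DR237036.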

How the results depend on the processing

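The 22 called shifts kept their sign under all alternatives, which was largely set beforehand, and their calls did not hold. None was called with no background subtraction, with median centring, with the scanner software's ratios or the deposited value table, with only the 4 arrays, without the 0 h or the 8-9 h arrays (both added after seeing the data), or with no replicate block, so 0 of the 13 reversed genes passed the test of the shift there. Genes called at both times with opposite signs, 60 in all, numbered 76 with no background subtraction and 62 with only the 4 arrays. Of these, 51 and 39 were among the 60. With 1 array left out, the median of the 22 shifts lay between -1.71 and -1.65, against -1.69 with all arrays. With dim genes kept there were 76 calls (28 reversed), with a gene's probes averaged 34, and in the separate-channel fit 150 (30 reversed), while the intensity trend gave 26. Adjusted p of the 22 lay between 0.691 and 0.930 with median centring and between 0.103 and 0.357 when 1 array was left out. Median centring left 0 genes called at 2 h, 1443 at 4 h and 0 of the 60 with opposite signs, a count that was 19 with no replicate block and between 1 and 37 when 1 array was left out. Without 1 array, line differences ranged from 504 to 3083 at 2 h and from 3277 to 6748 at 4 h. The 36 changes within Alc::LHY became 81 with no background subtraction, 63 with quantile normalization, 7 with no replicate block and 82 with dim genes kept, and 1 to 70 without 1 array. Those within wild type ranged from 0 to 168. Among single genes, the shift of LHY was 0.0800 without the 2 h array of S (range -0.455 to 0.0800 without 1 array), and that of ADH1 was -0.0202 without the 4 h array of S (range -0.0202 to 1.74). The list median ran from -1.40 to -0.81 for light harvesting, from -1.04 to -0.50 for glucosinolates, from 0.10 to 1.43 for cold response, from -1.92 to -0.74 for root endodermis, from -2.54 to -1.25 for root triterpenes and from -1.32 to -0.36 for root epidermis. Those of the daytime clock, ethanol, nitrate, ethylene, wound and heat shock lists changed sign. Having 2 arrays per time limits the precision, and leaving 1 out assumes that the lone array varies like the others. Apart from fewer samples, the causes were not tested.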

Other observations

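A shift of more than 1 log2 unit on both replicates was found downwards in 260 genes (1.21%), of which 20 were called, and upwards in 39 genes (0.182%), of which 2 were called. The lower set held 133 genes that differed between the lines at 4 h and not at 2 h, 46 with opposite signs and 38 that differed at 2 h and not at 4 h. The higher set held 23 that differed at 4 h only, 15 whose difference had grown and 1, AT4G27657, whose lower level in Alc::LHY at 2 h no longer passed the test at 4 h. The genes of the higher set named next were chosen after their values were seen. PMT1, a polyol transporter, was at 3.42 and 2.93 at 4 h, against 2.07 and 1.12 at 2 h. AFP1, a regulator of the ABA response factor ABI5, was at 2.24 and 0.88 at 4 h, against 0.15 and -0.29 at 2 h. AGL86, of the MADS-box family, was at 2.3 and 4.09 at 4 h, against 0.88 and 1.08 at 2 h. In all 3 genes the 4 h ratio exceeded the 2 h ratio in each replicate, and none passed the test (limma adjusted p = 0.0648 for PMT1, 0.116 for AFP1 and 0.0993 for AGL86).

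The transcript with the largest line difference, TA44692_3702, has no gene name in the tables used. It was at 9.03 and 9.30 at 4 h, against 7.27 and 5.39 at 2 h, and at 0.24 and 2.60 at 0 h. Its shift of 2.84 ± 1.02 did not pass the test (limma adjusted p = 0.238), and the replicates were farther apart at 2 h than at 4 h.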
